A study of Mus musculus with 2 samples.

Results

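The 10 genes belong to the machinery that holds RNA polymerase II near promoters and carries it through genes: Supt5 and Supt4a (the DSIF factor), Nelfa, Nelfb, Nelfcd and Nelfe (the NELF complex), Supt6, Ell and Ell2, and Paf1. They were chosen by name and not by a measured value, though with earlier results of these data known. All 10 of 10 were found among the 55536 annotated genes of each table. Total RNA without ribosomal RNA was read from nuclei, in the labels' words the nucleoplasmic fraction, of macrophages grown from bone marrow (BMDM) of C57BL/6J mice. The cells received Lipid A, the TLR4-activating part of bacterial lipopolysaccharide, at 100 ng/ml for 12 h, were kept without it for 12 h, and received 100 ng/ml again for 40 min. Both libraries belong to this 1 group, and no resting or singly treated cells were analysed here, so every value below is a level and not a response. The RNA input was 1 µg for library 1 and 500 ng for library 2. The labels name them biological replicates 1 and 2 but list one donor for both, and the SD over these 2 libraries may be partly technical. Age and sex of the animals were not collected, per the labels.

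Soon after initiation, polymerase II is held by DSIF and NELF, which together keep it paused downstream of the start site. The kinase P-TEFb releases it by phosphorylating DSIF, NELF and the polymerase, after which NELF leaves while DSIF travels on with Spt6 and the PAF1 complex. ELL proteins suppress transient stalling and work with P-TEFb in the super elongation complex. In macrophages this release step is known as a point of control for many genes induced by bacterial products.

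Library 1 held 19797829 expected counts on annotated genes and library 2 held 17213606, of which the 10 genes together took 0.0564% and 0.0535%. A count of 0 allows up to 3 counts, or 0.152 and 0.174 CPM (counts scaled to library size), for counting error only. All 7 macrophage markers were detected (10 or more expected counts in both libraries) at 56.5 to 1421 TPM, a unit scaled to transcript length and library total. Of 19 markers of T cells, B cells, neutrophils, fibroblasts, endothelial and erythroid cells, 1 was detected (Pecam1, 1.94 and 1.14 TPM), 8 were at 0 in both libraries, and their summed level was 3.34 and 1.75 TPM. In bulk RNA, fewer cells of a type and less RNA per cell cannot be told apart. Mitochondrial genes accounted for 2.63% (library 1) and 6.60% (library 2) of expected counts, so RNA of the mitochondrial genome was present in the fraction. Of 2 nuclear RNAs, Malat1 was at 26516 and 22941 TPM (centred log2 ratio of library 2 to library 1 of 0.15) and Neat1 at 1616 and 575 TPM (-1.13).

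All 10 genes were detected. Ell2 and Paf1 stood highest and Nelfa lowest. The 10 had medians of 13.3 and 7.57 TPM in libraries 1 and 2, against 7.07 and 5.57 TPM for the 10991 detected protein-coding genes. By mean TPM, 7 of 10 lay above the median detected gene, where 50% of genes lie by construction, and 1 of 10 lay among the top 10% of genes. The TPM scale differed between the libraries, with a median log2 shift of -0.36 over detected protein-coding genes. Levels were therefore ordered after dividing by the median gene of the same library. On that scale the order was Ell2 at 9.81 times the median gene, Paf1 at 5.49, Supt6 at 3.06, Supt5 at 2.97, Nelfcd at 1.69, Nelfe at 1.55, Supt4a at 1.12, Nelfb at 0.968, Ell at 0.966 and Nelfa at 0.554 times. Of the 9 pairs of neighbours in that order, 5 had ranges over the 2 libraries that did not overlap. The ranges overlapped for Supt6 and Supt5, for Nelfcd and Nelfe, for Supt4a and Nelfb, and for Nelfb and Ell, so the order within those pairs is not resolved. Counting protein-coding transcripts alone, an alternative chosen after seeing the data, gave the order Ell2, Supt6, Supt5, Paf1, Supt4a, Ell, Nelfe, Nelfb, Nelfcd and Nelfa. The drop of Paf1 and Nelfcd in that order goes with their transcript composition, described below.

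**Figure D1:**
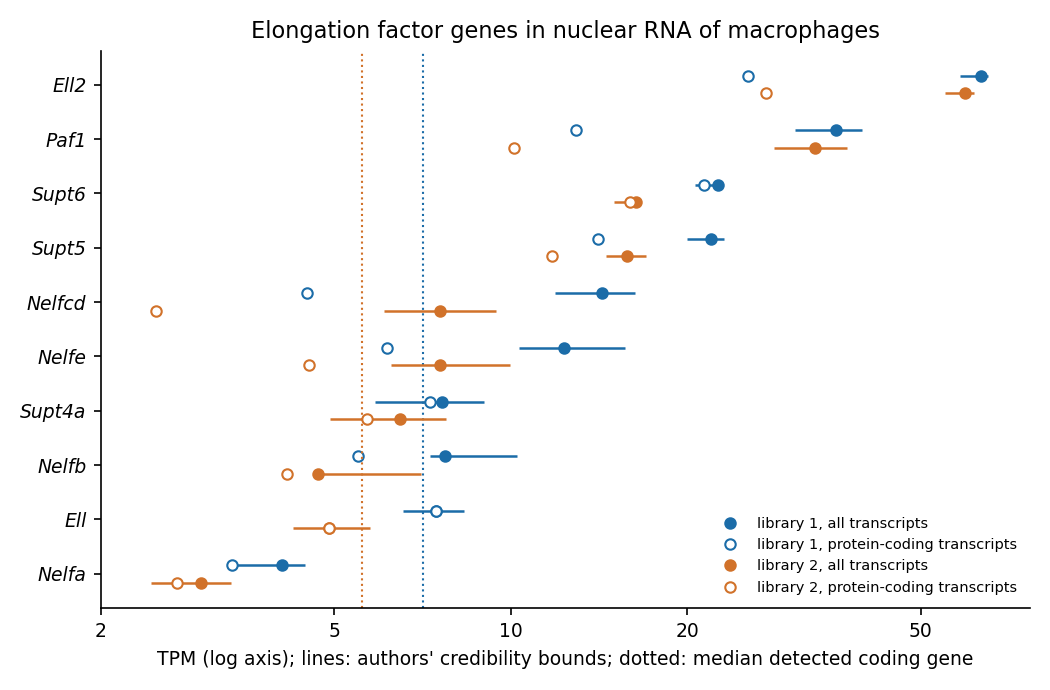
TPM (log axis) of each gene in library 1 (blue) and library 2 (orange), with filled points for all transcripts, open points for protein-coding transcripts, and lines for the credibility bounds deposited by the authors for all transcripts, which belong to a posterior estimate and leave the TPM of Supt6 just outside. Dotted lines mark the median detected protein-coding gene of each library (7.07 and 5.57 TPM). Ell2 lies near 60 TPM in both libraries, filled and open points coincide for Ell, and they lie far apart for Paf1, Nelfcd and Ell2.

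DSIF is a pair of proteins encoded by Supt5, which contacts polymerase and nascent RNA, and Supt4a, its small partner. Supt5 (ENSMUSG00000003435.9, chr7:28314891-28338746, minus strand, mm10) stood at 22.0 TPM (library 1) and 15.8 TPM (library 2), from 1394 and 1102 expected counts. Supt4a (ENSMUSG00000020485.14, chr11:87737552-87743623, plus strand) was at 7.62 and 6.47 TPM, from 83 and 73.7 counts. Supt5 was thus higher than Supt4a in both libraries, by log2 ratios of 1.53 and 1.28, or 2.65-fold on average. Counted over protein-coding transcripts alone the ratio was smaller, at 0.95 and 1.05. Protein-coding transcripts held 64.1% and 74.7% of Supt5 TPM, while transcripts marked for nonsense-mediated decay, mainly Supt5-202, held 15.3% and 12.6%. An antisense gene, Gm44709, shares 433 exon bases with Supt5 and was given 94.5 and 64.2 counts. No label or header says whether counting used the strand, so Supt5 and Gm44709 reads may be mixed.

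Supt6 encodes Spt6, a histone chaperone that rides with elongating polymerase. It (ENSMUSG00000002052.6, chr11:78206746-78245987, minus strand) had 22.5 and 16.4 TPM in libraries 1 and 2, from 2968 and 2294 counts. Its level lay close to that of Supt5, with log2 ratios of Supt6 to Supt5 of 0.04 and 0.05 by RSEM (mean 0.05 ± 0.01, SD, n = 2). By kallisto the ratios were -0.13 and 0.02 (SD 0.10), so the sign was not settled. The likeness held for all transcripts together and not for protein-coding ones, where Supt6 was above Supt5 by 0.60 and 0.44. Protein-coding transcripts held 94.7% and 97.5% of Supt6 TPM, and its single retained-intron transcript 5.28% and 2.51%. Supt6 shares 242 exon bases with Sdf2 on the opposite strand, which was given 390 and 238 counts.

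NELF has 4 subunits: NELF-A and NELF-C/D form one pair, and NELF-B joins NELF-E, which has an RNA-binding domain. Nelfa (ENSMUSG00000029111.7, chr5:33897916-33936413, minus strand) had 4.07 and 2.96 TPM in libraries 1 and 2. Nelfb (ENSMUSG00000013465.19, chr2:25199712-25211489, minus strand) was at 7.73 and 4.69 TPM. These were the 2 lowest NELF genes in each library, from 197 and 154 counts for Nelfa and 356 and 235 counts for Nelfb. Nelfcd (ENSMUSG00000016253.12, chr2:174415804-174427502, plus strand) was at 14.3 and 7.56 TPM, from 295 and 163 counts. Nelfe (ENSMUSG00000024369.16, chr17:34850391-34856372, plus strand) was at 12.3 and 7.58 TPM, from 190 and 136 counts. The highest subunit exceeded the lowest 3.52-fold in library 1, where it was Nelfcd, and 2.56-fold in library 2, where it was Nelfe. Over protein-coding transcripts alone the span was narrower, 1.84-fold and 1.82-fold. By kallisto, Nelfcd was highest in both libraries over all transcripts, with spans of 5.96-fold and 4.23-fold. Kallisto spans over protein-coding transcripts were 2.35-fold and 2.08-fold, with Nelfe highest.

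Against Nelfb, the log2 ratio of Nelfa was -0.93 in library 1 and -0.66 in library 2. That of Nelfe was 0.67 and 0.69 by RSEM, but 1.33 and 0.78 by kallisto. For Nelfcd the ratio was 0.89 and 0.69 over all transcripts but -0.29 and -0.74 over protein-coding ones. By kallisto the ratio over protein-coding transcripts was 0.39 and -0.04. Whether Nelfcd stood above or below Nelfb therefore depended on which transcripts were counted and on the program. Nelfe was below Supt5 by log2 ratios of -0.84 and -1.06. Against Polr2a, the catalytic subunit of polymerase II at 30.6 and 28.1 TPM, Nelfb was lower by log2 ratios of -1.98 and -2.58 and Supt5 by -0.48 and -0.83. Nelfa shares 60 exon bases with Nsd2, given 1623 and 1252 counts, and Nelfcd shares 10 with Ctsz, given 15310 and 13331 counts, each on the opposite strand.

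By TPM, the NELF subunits differed in transcript composition. Retained-intron transcripts, annotated RNAs that keep part of an intron, held 61.8% and 57.0% of Nelfcd TPM and 50.04% and 40.4% of Nelfe TPM. The shares were 29.1% and 11.3% for Nelfb and 17.7% and 9.43% for Nelfa. By expected counts, which are not divided by length, they were lower, at 29.5% and 25.2% for Nelfcd and 17.3% and 12.8% for Nelfe. On that scale Nelfb had 22.3% and 3.49%, above Nelfe in library 1 and below it in library 2, and Nelfa 13.5% and 6.94%. Nelfcd-205 (4.94 and 2.98 TPM) holds all of intron 9, of 373 bases, and Nelfcd-204 (2.98 and 0.86 TPM) all of intron 12, of 76 bases. Nelfe-205 (2.53 and 1.90 TPM, from 16 and 12 counts) holds introns 5 and 6 whole. A short intron of each gene is shown, since these are the letters that separate the retained-intron transcript from the protein-coding one. Each is given with 20 exon bases on either side, from GENCODE M21 transcript sequences, on the plus strand of mm10. The windows are chr2:174426393-174426508 for Nelfcd intron 12 and chr17:34853480-34853632 for Nelfe intron 5. Capitals mark the first 2 and last 2 bases of the intron.
Nelfcd intron 12: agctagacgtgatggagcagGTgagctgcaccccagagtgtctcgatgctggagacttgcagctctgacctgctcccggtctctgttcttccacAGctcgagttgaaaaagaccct
Nelfe intron 5: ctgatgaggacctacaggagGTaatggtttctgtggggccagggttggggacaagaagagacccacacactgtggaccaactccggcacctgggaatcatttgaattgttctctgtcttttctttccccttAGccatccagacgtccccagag
Both introns begin with GT and end with AG, the usual splice site letters, and lie between coding exons.

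Ell and Ell2 encode related elongation factors of the super elongation complex, and Ell2 is known for its part in antibody mRNA processing in plasma cells. Ell (ENSMUSG00000070002.7, chr8:70539457-70592858, plus strand) had 7.44 and 4.90 TPM in libraries 1 and 2, from 457 and 316 counts. Ell2 (ENSMUSG00000001542.7, chr13:75706757-75772364, plus strand) was at 63.3 and 59.4 TPM, from 4465 and 4159 counts. Ell2 exceeded Ell in both libraries, by log2 ratios of 3.09 and 3.60, or 10.2-fold on average. The credibility bounds of the 2 genes did not meet in either library: those of Ell2 ran from 58.3 to 65.1 TPM in library 1 and from 54.9 to 61.7 TPM in library 2. Over protein-coding transcripts alone the log2 ratio was 1.77 and 2.47, or 4.35-fold on average, so the direction was kept and the size was not. By RSEM, Ell had all of its TPM in the coding transcript Ell-201, and it has no annotated retained-intron transcript.

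Ell2 had 40.1% and 45.8% of its TPM in protein-coding transcripts and 59.6% and 53.9% in 3 retained-intron transcripts. The coding transcript Ell2-201 was at 24.7 and 26.7 TPM. Ell2-206, whose first exon starts inside intron 4, was at 15.6 and 10.4 TPM, and Ell2-204 was at 14.0 and 9.57 TPM. Ell2-203, a short RNA of 511 bases that runs on past exon 3, was at 8.18 and 12.0 TPM. By counts, Ell2-204 was the largest of these, with 1476 and 1062. It is 5126 bases long, 81.0% of them in introns of Ell2-201, and holds all of introns 9 (3318 bases) and 10 (835 bases). Most of its letters are therefore absent from the coding transcript. Both ends of intron 9 are shown, with 20 exon bases beside each and the splice site letters in capitals, from the plus strand of mm10 at chr13:75766201-75766260 and chr13:75769499-75769558.
Ell2 intron 9, 5′ end: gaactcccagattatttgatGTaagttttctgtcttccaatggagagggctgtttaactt
Ell2 intron 9, 3′ end: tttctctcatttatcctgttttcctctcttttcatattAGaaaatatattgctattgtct
As for the NELF introns, the ends are GT and AG.

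PAF1, encoded by Paf1, is the core of a complex that also holds CTR9, CDC73, LEO1, RTF1 and WDR61 and that travels with elongating polymerase. Paf1 (ENSMUSG00000003437.14, chr7:28392951-28399388, plus strand) had 35.9 and 32.9 TPM in libraries 1 and 2, from 751 and 571 counts. It was above each of 4 partners set beside it in both libraries. The log2 ratio was 2.74 and 2.93 to Ctr9, 2.76 and 3.25 to Leo1, 2.73 and 2.65 to Rtf1, and 1.08 and 1.28 to Cdc73, a gene at 17.0 and 13.6 TPM. Over protein-coding transcripts alone, Paf1 was at 12.9 and 10.1 TPM and stayed above these 4 partners. The ratio to Ctr9 was then 2.01 and 1.79 and that to Cdc73 2.87 and 2.29, since protein-coding transcripts of Cdc73 were at 1.76 and 2.08 TPM.

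Paf1 had the highest retained-intron share of the 10 genes, 64.0% in library 1 and 69.2% in library 2, from 9 such transcripts. The largest by TPM was Paf1-208, at 7.81 and 12.8 TPM from 40.6 and 65.5 counts, second to Paf1-201 in library 1 and above it in library 2. Paf1-208 is 446 bases long, and 432 of them are exon bases of Paf1-201. The remaining 14, or 3.14%, are the end of the intron before the exon where it starts. Its first 60 bases are shown because its class rests on the 14 intron bases, in capitals (chr7:28398434-28398493, plus strand, mm10).
Paf1-208 start: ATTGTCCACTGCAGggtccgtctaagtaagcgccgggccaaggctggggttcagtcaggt
Paf1 intron 4, of 89 bases, is held whole by Paf1-202 (2.80 and 0.44 TPM), Paf1-203 (0 in both libraries) and Paf1-209 (2.17 and 1.85 TPM). It is shown for contrast with 20 exon bases on either side and splice site letters in capitals (chr7:28395520-28395648, plus strand).
Paf1 intron 4: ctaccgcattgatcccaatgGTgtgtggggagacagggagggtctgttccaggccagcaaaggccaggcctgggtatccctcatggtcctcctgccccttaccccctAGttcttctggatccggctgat
Of the 27 retained-intron transcripts of the 10 genes, 6 had under 10% of their bases in introns of the leading coding transcript. Without those 6, a choice made after seeing the data, the share of Paf1 was 48.9% and 48.5%, that of Nelfcd 51.8% and 51.5%, and that of Nelfe 47.8% and 31.9%. Ell2 has none of the 6, and its share stayed at 59.6% and 53.9%.

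**Figure D2:**
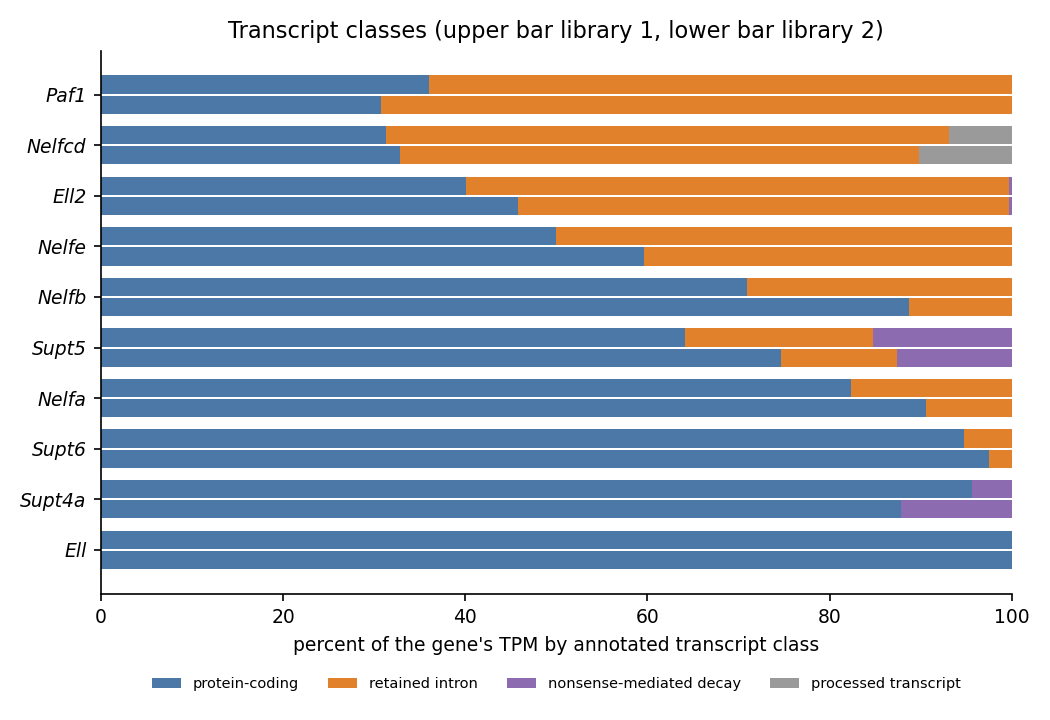
Percent of each gene's TPM in protein-coding (blue), retained-intron (orange), nonsense-mediated decay (purple) and processed (grey) transcripts, library 1 in the upper bar and library 2 in the lower bar of each gene. Paf1, Nelfcd and Ell2 have over 50% in retained-intron transcripts in both libraries, and Ell and Supt4a have none. Supt4a is drawn though it lies below the minimum of 100 expected counts used for isoform shares.

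Across the 8 genes with an annotated retained-intron transcript, the share of TPM had a median of 32.7%, against 24.0% over 5058 protein-coding genes with such a transcript at 100 or more counts in both libraries. Of these 8, 3 were over 50% (Paf1, Nelfcd and Ell2), against 13.4% of the 5058. Paf1 lay at percentile 96.0 of those genes, Nelfcd at 93.0, Ell2 at 91.2 and Nelfe at 83.0. Supt6 lay at percentile 7.58, so the 8 genes covered most of the range. Kallisto, a second program, put 2 of 8 over 50% against 19.6% of genes. It gave Paf1 82.9% and 83.6%, Nelfcd 69.1% and 59.1%, and Ell2 46.3% and 44.9%. By expected counts, which are not divided by length and were added after seeing the data, the median of the 8 was 14.0%, against 13.0% over the 5058 genes, and 0 of 8 were over 50%, against 10.2% of genes. On that scale Ell2 had 50.3% (Wilson 95% interval 48.8 to 51.8) in library 1 and 39.5% (38.0 to 41.0) in library 2. Paf1 had 33.7% (30.4 to 37.1) and 28.4% (24.8 to 32.2). These intervals cover counting error only, not the assignment of reads to transcripts, and the libraries of Ell2 differed by more than its intervals. Short transcripts hold few counts but take much TPM: Paf1-208 had 40.6 of the 751 Paf1 counts in library 1 and 7.81 of its 35.9 TPM. A retained intron and one not yet spliced out cannot be told apart from these tables.

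**Figure D3:**
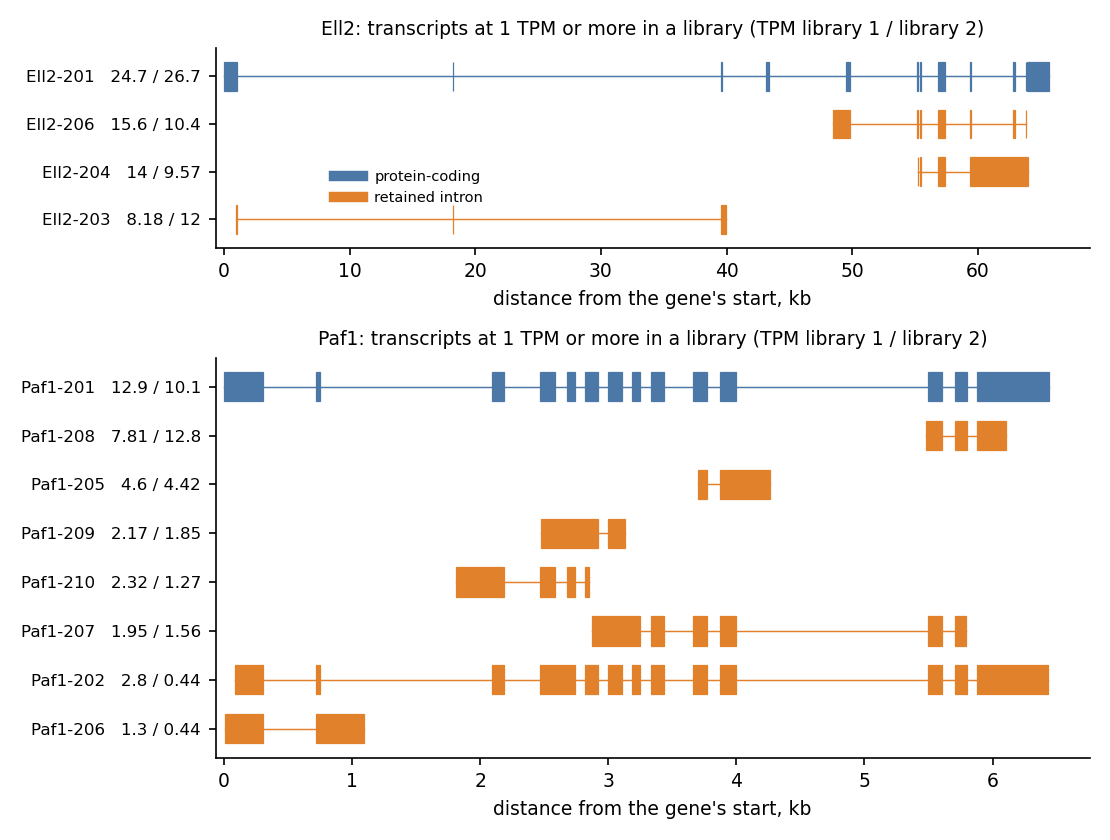
Exons (boxes) of the Ell2 and Paf1 transcripts at 1 TPM or more in a library, by distance from the start of the gene in kb, blue for protein-coding and orange for retained intron, with TPM in library 1 and library 2 beside each name. Ell2-204 carries a long box over introns 9 and 10 of Ell2-201, whereas the boxes of Paf1-208 lie on 3 exons of Paf1-201 apart from 14 bases.

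By annotation alone, whatever the level measured here, retained-intron transcripts held whole 14 of the 150 introns of the 10 leading coding transcripts. Nelfb intron 9, for one, is held only by Nelfb-207, at 0 and 0.24 TPM in libraries 1 and 2. The same count was not made for other genes. All 14 introns begin with GT and end with AG. Their median length was 106.5 bases, from 75 bases in Paf1 to 3318 bases in Ell2. The Ell2 introns were the longest of the set and also the poorest in G and C, at 39.9% and 35.8%, against 64.0% for Paf1 intron 4.

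RefSeq promoters (250 bases before to 50 after the start, GRCm38.p6) were matched for 8 of the 10 genes, all but Nelfcd and Nelfe. Their G and C content ran from 53.0% to 71.0%, with a median of 61.3%, against 52.7% over 32851 promoters. They held 14 to 37 CpG pairs, with a median of 26 against 7. The letters GGGCGG, on either strand, occurred in 7 of 8, all but Supt6, against 35.7% of all promoters. TATAAA, on either strand, occurred in 1 of 8, Nelfb, against 13.6%. These are letter matches and not binding sites. The windows follow RefSeq starts, which need not be those of the GENCODE genes. Those of Ell2 (chr13:75707234-75707533) and Supt6 (chr11:78245654-78245953) lie wholly inside the gene spans given above, and the others in part. All 8 genes were detected, while the 32851 promoters were not filtered by detection, so the sets compared are unlike.

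The other genes of the pathway were set beside the 10 in 5 lists, 42 genes in all, of which 38 were detected. Among detected protein-coding genes the median of all 42 lay at percentile 48.0 and that of the 38 at 54.6, while that of the 10 genes, all detected, lay at 62.6. The 8 genes of P-TEFb and its control, all detected, had a median of 19.3 TPM (percentile 76.4). Cdk9, the P-TEFb kinase, was highest at 79.0 and 46.3 TPM, and Hexim2, an inhibitor that acts with 7SK RNA, lowest at 2.47 and 0.78 TPM. On the scaled measure Cdk9 averaged 9.75 and Ell2 9.81 times the median gene, but Cdk9 was the higher of them in library 1 and the lower in library 2. By kallisto they averaged 6.93 and 9.84. Among the other super elongation complex genes 5 of 7 were detected, with a median of 5.56 TPM over the 7 and 9.45 TPM over the 5. Aff1, its scaffold, was highest at 55.7 and 43.6 TPM, and Eaf2, an ELL-associated factor, lowest at 0.24 and 0.06 TPM.

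The 5 other PAF1 complex genes were all detected, with a median of 4.86 TPM, from Wdr61 at 4.32 and 3.32 TPM to Cdc73. Of the 9 genes for passage through chromatin and arrest sites 8 were detected, with a median of 11.6 TPM over the 9 and 13.1 TPM over the 8. Eloc, an elongin subunit, was highest at 16.0 and 17.0 TPM, and Tcea3, a form of TFIIS, lowest at 0.09 and 0 TPM. Among 13 genes named as polymerase II subunits, Polr2a to Polr2m, 12 were detected. The median was 3.44 TPM over the 13 and 4.11 TPM over the 12. Polr2a was highest and Polr2d, at 1.22 and 0.26 TPM, was not detected.

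**Figure D4:**
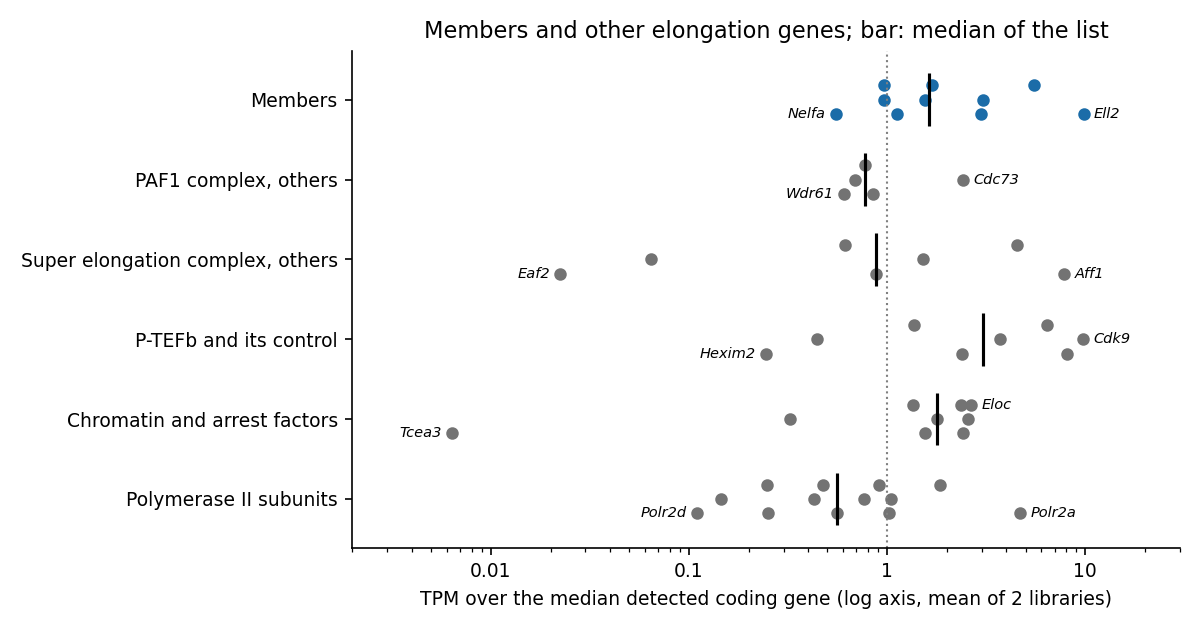
Level of each gene over the median detected protein-coding gene (log axis, mean of 2 libraries), with the 10 genes in blue, the 5 other lists in grey, a bar at each list's median and the highest and lowest gene named. Ell2 at 9.81 and Cdk9 at 9.75 are the rightmost points of the plot, and Tcea3 is the leftmost.

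Between the libraries, which differ in RNA input, Nelfcd differed most among the 10 genes by TPM and was lower in library 2. After centring on the median detected protein-coding gene, 0 of 10 genes were past 2-fold, as were 6.01% of 10991 genes, and 0 of 10 were past 1.5-fold, as were 22.9%. The log2 ratio of library 2 to library 1 ran from -0.56 for Nelfcd to 0.27 for Ell2, with a median of -0.11. It was below the centre for 7 of 10, against 50% of genes: Nelfcd, Nelfb (-0.36), Nelfe (-0.34), Ell (-0.24), Supt5 (-0.12), Supt6 (-0.10) and Nelfa (-0.10). Supt4a (0.12), Paf1 (0.24) and Ell2 were above it. No test is possible with 1 library a side. The sign was the same across RSEM TPM, kallisto TPM, TMM-scaled counts and protein-coding transcripts for Nelfcd, Nelfb, Nelfe, Ell and Ell2 (0.01 by kallisto). It flipped on at least 1 of these scales for the other 5: Paf1 was at -0.10 with TMM, Supt6 at 0.03 by kallisto, and Supt4a at -0.03, Supt5 at 0.07 and Nelfa at 0.01 over protein-coding transcripts. By kallisto, Nelfe was at -0.98, past 1.5-fold as were 17.7% of genes, from 5.23 and 4.86 TPM on a scale whose median gene shifted by 0.87. The share of mitochondrial counts (2.63% and 6.60%) and the level of Neat1 also differed between the libraries, and their part in these ratios was not tested. Of the 42 other pathway genes, 2 detected ones were past 2-fold: Hexim2 was lower in library 2 (-1.30), and Polr2i, a small polymerase subunit, was higher (1.27, from 4.24 and 7.99 TPM). Neither call held on every scale: by kallisto Hexim2 was at -0.71 and Polr2i at 0.63, and with TMM Hexim2 was at -1.27 and Polr2i at 0.86. Over protein-coding transcripts Polr2i was at 4.25 and 4.12 TPM.

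**Figure D5:**
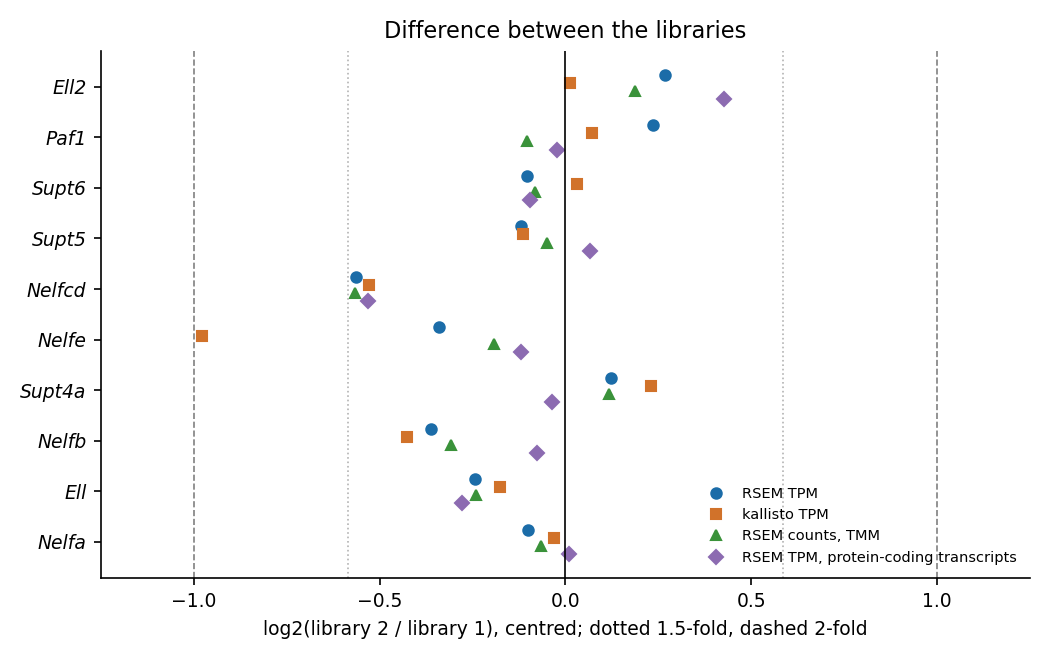
Log2 ratio of library 2 to library 1 for each gene, by RSEM TPM (circles), kallisto TPM (squares), RSEM counts with TMM scaling (triangles) and RSEM TPM of protein-coding transcripts (diamonds). TPM ratios are centred on the median detected protein-coding gene, and dotted and dashed lines mark 1.5-fold and 2-fold. Nelfcd lies between -0.53 and -0.57 on all 4 scales, while Nelfe runs from -0.98 to -0.12.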

How the data were processed

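Per the file headers, each library has gene and transcript tables laid out as by RSEM and a transcript table laid out as by kallisto. Per the labels and file notes the assembly is mm10, and the annotation is GENCODE M21. The aligner, versions and strand setting were not given in the sources used here. Next to expected counts (estimates that need not be whole), the authors deposited TPM over all features of a table, credibility bounds of TPM (used as a score of precision, level not stated) and the percent of a gene's TPM in each transcript.

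Symbols, transcript classes and positions came from GENCODE M21, and all 55536 annotated genes matched. Other features (130067 and 38249 expected counts) were left out of the count totals. Detected means 10 or more expected counts in both libraries, and isoform shares needed 100. Percentiles and centring used the 10991 detected protein-coding genes, and ratios had no pseudocount. Kallisto TPM was summed by gene; 86 genes had no kallisto transcript. With 1 group of 2 libraries no test was run and no likeness of pattern between genes was computed. Scaling factors came from edgeR 4.0.16 (TMM) and DESeq2 1.42.0 in R 4.3.3 on rounded expected counts. The functions were tested on simulated data. Named genes are the 10 members, the highest and lowest gene of each list, genes of 13 fixed pairs, and list genes past 2-fold. Members, lists and alternatives were chosen with earlier results of these data known.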

Additional observations from a re-analysis of the deposited data

Results flagged for a closer look

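Inside the span of Ell2 lies Gm48302, a gene annotated as sense intronic, which belongs to none of the lists compared. It was given 1973 expected counts in library 1 and 1751 in library 2. By RSEM it was at 54.8 and 46.6 TPM, close to the 63.3 and 59.4 TPM of Ell2 itself. By kallisto it was further below, at 13.2 and 26.3 TPM against 24.2 and 44.7 TPM for Ell2. Gm48302 lies at chr13:75727279-75729162 (mm10) on the strand of Ell2 and shares 0 exon bases with it. Reads of Gm48302 and of unspliced Ell2 RNA in that stretch cannot be told apart in these tables. Gm44709, antisense to Supt5, was given 94.52 and 64.21 expected counts, or 18.0 and 12.5 TPM, and kallisto gave it 28.7 and 5.49 counts. Both are the non-coding genes over the span of one of the 10 genes that had more than 3 counts in both libraries. No control samples were analysed here.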

How the results depend on the processing

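The median percentile of the 10 genes, 62.6, was 54.0 among genes with 50 or more counts, 81.3 with no minimum and 53.2 by CPM, and it was 58.1 and 65.9 in a single library each. Leaving out a library kept 43 or 44 of the 45 pairwise orders, all 13 signs of the subunit ratios, 38 or 39 of 42 pathway genes detected, and a median retained-intron share of 26.6% or 39.6%. Of the pairwise orders, 44 were kept by kallisto and 36 over protein-coding transcripts alone. By RSEM the Nelfcd to Nelfb ratio reversed over protein-coding transcripts, to a mean log2 of -0.52, while the kallisto mean over them was 0.17. The median library ratio, -0.11, was -0.45 with no minimum and a pseudocount of 1, and -0.47 without centring. The count past 1.5-fold, 0, was then 3 and 4, where 22.7% and 35.0% of all detected coding genes were past it with their median at -0.27 and -0.36, and 1 by kallisto. By expected counts the median retained-intron share, 32.7%, was 14.0%, and the number over 50% was 0. The median percentile of the pathway genes, 48.0, was 49.1 by kallisto, 36.3 with 50 or more counts, and 48.0 in each library alone. Alternative settings gave 276 values for single genes, pairs and the background retained-intron share. Of these, 172 stayed within a spread and 104 moved by more. For percentiles, subunit ratios and retained-intron shares the spread was the SD of the 2 libraries. Leaving out a library keeps a subunit ratio or share within that SD by construction, and percentiles nearly so. Those alternatives therefore do not measure stability. For library ratios the spread was 0.321 in log2, from the SD of the ratio over 7993 genes. Of 145 values of library and subunit ratios under alternative settings, 16 had the other sign, for 6 genes and 2 pairs. The causes were not tested. No paired analysis was possible because there is 1 group.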
